A study of Homo sapiens with 24 samples.

Results

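The comparison described here is asparagine withdrawal for 6 h in the presence of vehicle. It set 3 libraries of cells in medium without asparagine against 3 libraries of cells in medium with asparagine, 6 of the 24 RNA sequencing libraries of the series, and these 6 were chosen by their labels and not by any measured value. All came from PC9, a line from a human lung adenocarcinoma with an activating EGFR mutation, grown in RPMI medium. The cells of both groups were rinsed with PBS and given fresh medium holding 0.004% DMSO, the vehicle, and the media differed in asparagine. For comparison, the same withdrawal was followed in cells given 200 nM ISRIB for 6 h and in cells given vehicle for 24 h, with 3 libraries per group. The series' text calls the replicates of a group biological and does not say whether they came from separate passages. The p-values thus measure the spread between libraries of 1 cell line, pooled over the 8 groups of all 24 libraries. The main fit did not use the replicate number. Cell number was not given, and in bulk RNA fewer cells of a kind and less RNA per cell cannot be told apart.

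Asparagine is a non-essential amino acid that most cells make from aspartate and glutamine with asparagine synthetase, ASNS. When it runs short, uncharged tRNA activates the kinase GCN2, which phosphorylates the initiation factor eIF2. General translation then slows while the mRNA of the transcription factor ATF4 is translated more, and ATF4, paired with a C/EBP protein, binds composite promoter elements of genes for amino acid synthesis and transport and for tRNA charging. ISRIB activates eIF2B, the exchange factor that phosphorylated eIF2 inhibits, and so blunts this pathway. The 158 genes best known for it, together with the unfolded protein response, amino acid transport, tRNA synthetases and stress-induced apoptosis, were set aside as known stress genes, and the results below are mainly about the rest of the genome.

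The 6 libraries held 19447534 to 22741292 gene-assigned reads, so that 1 read was worth 0.044 to 0.0515 CPM, the counts of a gene scaled to the size of its library. ASNS, which checks the medium, had 175, 151 and 173 CPM without asparagine, against 30.8, 26.7 and 29.5 CPM with it, a log2 change of 2.52 ± 0.10, adjusted p = 7.8e-13 by the quasi-likelihood test of edgeR with Benjamini-Hochberg adjustment. ATF4 rose as well, by 0.82 on the log2 scale. All 12 epithelial marker genes were present, with 1.08% to 1.17% of the counts without asparagine and 1.12% to 1.28% with it. Of 17 fibroblast, endothelial and blood cell markers, 12 had at most 10 counts in each of the 6 libraries, among them 2 (LUM and HBB) with none. Their sum was 0.00331% to 0.00459% of the counts without asparagine and 0.00311% to 0.0059% with it, most of it from CDH5. Libraries of a group differed in how their counts followed transcript GC content. The slope per 10 points of GC was 0.0131, 0.0665 and -0.1124 on the log2 scale in replicates 1, 2 and 3 without asparagine, against 0.0955, 0.2136 and 0.0341 in those with asparagine.

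Withdrawal raised many more genes than it lowered, and raised them further. Of 17409 genes tested, 795 (4.57%) passed an adjusted p of 0.05, 576 (3.31%) of them higher and 219 (1.26%) lower without asparagine. At least 2-fold, 171 genes were higher and 15 lower, and at a log2 change of 2 or more 27 were higher and 0 lower. The median log2 change was 0.71 over the risen genes and -0.506 over the fallen ones, while over all genes tested it was 0.0051. At an unadjusted p below 0.05 there were 2705 genes. With the trend on GC content removed the counts were 1024 higher and 774 lower, a more even split. With 1 library left out, the risen genes numbered 375 to 455, fewest without replicate 1 given asparagine, and the fallen ones 95 to 139, fewest without replicate 2 deprived of it.

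**Figure D1:**
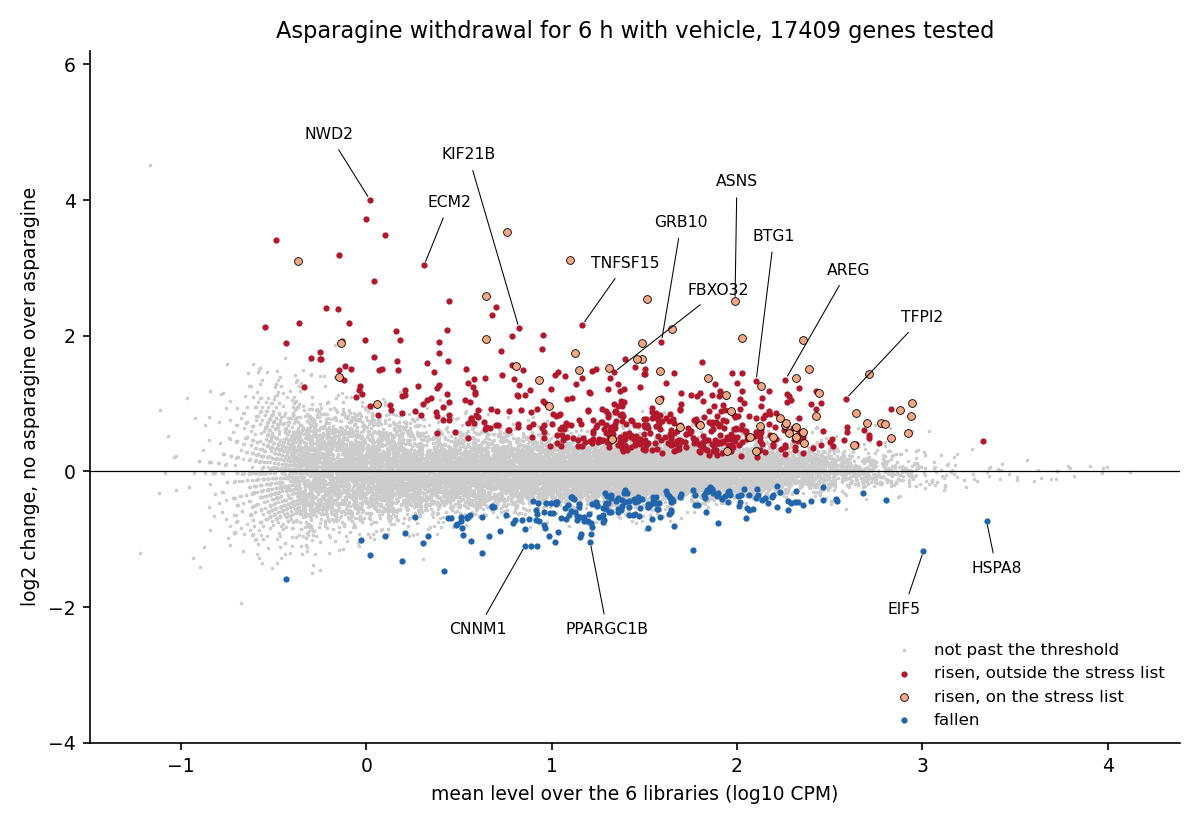
Log2 change, no asparagine over asparagine, against the mean level over the 6 libraries in log10 CPM, for the 17409 genes tested. Red and orange points mark the 576 genes that rose, blue points the 219 that fell; the largest changes lie above 0 and the falls stay shallow. NWD2 had 0 to a few reads in the libraries with asparagine, so its height depends on the fit.

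Most called genes were not on the list of known stress genes, which held 0.741% of the genes tested and 10.2% of the risen ones. Of the 129 on it that were tested, 59 (45.7%, against 3.31% of all genes) rose and 2 (ATF5 and ALDH18A1) fell. The list was chosen with earlier results of these data known, so these shares are not independent of the data. The median log2 change of the 129 was 0.295. This left 517 risen and 217 fallen genes outside the list. All risen genes together took 5.19%, 5.43% and 5.39% of all counts in replicates 1, 2 and 3 without asparagine, against 3.28%, 3.4% and 3.5% with it. The risen genes outside the list took 3.78%, 3.98% and 3.97% of all counts without asparagine, against 2.50%, 2.59% and 2.66% with it. Fallen genes of both kinds took 1.18%, 1.14% and 1.16% without asparagine, against 1.75%, 1.67% and 1.71% with it. The 3 libraries of each medium lay apart from the 3 of the other on all these shares, which the choice of these genes fixes in direction.

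The 20 largest rises outside the stress list, in genes of at least 5 CPM without overlap between the media, included the signalling genes TNFSF15, GRB10, GRB7 and SH3BP2. TNFSF15, a TNF family cytokine that signals through death receptor 3 (chromosome 9, 114784635 to 114806126, GRCh38), had 23.3, 24.0 and 24.6 CPM without asparagine, against 5.85, 4.59 and 5.64 CPM with it (2.16 ± 0.19, adjusted p = 2.4e-07). GRB10, an adaptor that restrains insulin and IGF receptor signalling (chromosome 7, 50590063 to 50793462), had 76.8, 50.9 and 57.8 CPM without asparagine, against 20.3, 14.5 and 14.6 CPM with it (1.91 ± 0.18, adjusted p = 3.5e-07). The 2 groups did not overlap for either gene, which the ranking required and 28.0% of all genes tested met. GRB7, an SH2 adaptor of ERBB receptors, rose by 1.66 on the log2 scale, with 39.5, 40.1 and 34.5 CPM without asparagine, against 13.1, 12.4 and 10.6 CPM with it. SH3BP2, an adaptor of tyrosine kinase signalling, rose by 1.5, and DUSP10, for a phosphatase of stress-activated MAP kinases, which is not among the 20, by 1.08. Adjusted p was 4.7e-06 for GRB7, 8.5e-06 for SH3BP2 and 5.7e-05 for DUSP10 by the edgeR test with Benjamini-Hochberg adjustment.

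AREG, EREG and HBEGF, which encode ligands of the EGF receptor, rose. AREG, amphiregulin, had 187, 313 and 288 CPM without asparagine, against 62.1, 127 and 120.0 CPM with it (1.35 ± 0.31, adjusted p = 0.011 by the same test). EREG, epiregulin, had 95.4, 166 and 152 CPM without asparagine, against 28.5, 62.8 and 59.6 CPM with it (1.45 ± 0.35, adjusted p = 0.017). HBEGF had 103, 197 and 170.1 CPM without asparagine, against 32.8, 69.7 and 69.8 CPM with it (1.45 ± 0.32, adjusted p = 0.0082). In each of the 3 genes replicate 1 was the lowest library of both media. The groups did not overlap, which the ranking required of EREG and HBEGF. With the replicate number as a block, which takes out that shared difference, the adjusted p was 0.0032 for AREG, 0.0053 for EREG and 0.0015 for HBEGF. In fits without the block the call of AREG was lost without replicate 2 of the cells deprived of asparagine (0.059) or replicate 1 of the cells given asparagine (0.085), that of EREG without replicate 2 of the cells deprived of asparagine (0.081), replicate 3 of the cells deprived of asparagine (0.065) or replicate 1 of the cells given asparagine (0.12) and that of HBEGF without replicate 2 of the cells deprived of asparagine (0.056) or replicate 1 of the cells given asparagine (0.067), with the adjusted p in brackets.

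Genes acting in the nucleus or on RNA were also among the largest rises. PRDM1, the transcriptional repressor BLIMP-1, had 5.60, 10.7 and 13.2 CPM without asparagine, against 2.07, 2.66 and 2.69 CPM with it (1.99 ± 0.34, adjusted p = 0.00066 by edgeR). Its replicate 1 without asparagine was lower than replicates 2 and 3, yet above all 3 libraries with asparagine, as the ranking required. ZBED3, a zinc finger protein that binds axin, had 17.0, 15.2 and 15.6 CPM without asparagine, against 5.10, 6.47 and 5.69 CPM with it and rose by 1.47 on the log2 scale (adjusted p = 3.4e-07). PNRC1, a nuclear receptor coactivator that also takes part in mRNA decapping, had 26.5, 25.8 and 24.9 CPM without asparagine, against 9.23, 8.76 and 9.03 CPM with it (1.51 ± 0.22, adjusted p = 8.7e-05). The libraries of a medium were close together in both genes. BTG1, an antiproliferative partner of the CCR4-NOT deadenylase, had 169, 184 and 192 CPM without asparagine, against 62.5, 71.5 and 82.5 CPM with it (1.33 ± 0.12, adjusted p = 3.3e-07). SYNE1, which encodes nesprin-1, a giant protein linking the nuclear envelope to the cytoskeleton (chromosome 6, 152121684 to 152637801), rose by 1.57 (adjusted p = 3.4e-07), with 9.93, 8.58 and 8.94 CPM without asparagine, against 3.48, 3.02 and 2.74 CPM with it.

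Single genes of other kinds rose as well. KIF21B, a kinesin that limits microtubule growth (chromosome 1, 200969390 to 201023700), had 11.5, 11.5 and 9.55 CPM without asparagine, against 2.32, 2.76 and 2.44 CPM with it (2.11 ± 0.19, adjusted p = 2.5e-07 by edgeR with Benjamini-Hochberg adjustment). RNF144B, an RBR-type ubiquitin ligase, had 14.7, 14.9 and 13.5 CPM without asparagine, against 3.38, 2.92 and 4.34 CPM with it (2.01 ± 0.18, adjusted p = 2.8e-07). Neither gene had overlapping groups, as the ranking required. FBXO32, the F-box ligase atrogin-1 known from muscle wasting, had 24.4, 38.5 and 32.7 CPM without asparagine, against 9.49, 13.3 and 12.0 CPM with it (1.46 ± 0.15, adjusted p = 1.5e-06). PRSS8, the membrane protease prostasin, had 44.7, 45.7 and 35.2 CPM without asparagine, against 14.8, 16.1 and 12.2 CPM with it (1.54 ± 0.20, adjusted p = 2.3e-05). GPX8, a glutathione peroxidase of the endoplasmic reticulum, had 26.3, 19.6 and 27.4 CPM without asparagine, against 9.44, 7.09 and 9.82 CPM with it (1.47 ± 0.18, adjusted p = 9.9e-06). For all 3 the lowest library without asparagine was above the highest with it, again by the rule of the ranking. LURAP1L, the autophagy kinase gene ULK1 and the cyclin G2 gene CCNG2 rose by 1.80, 1.46 and 1.77 on the log2 scale. CCNG2 lost its call without replicate 3 of the cells given asparagine (0.063), the adjusted p being in brackets. PSAT1P1 and PSAT1P3, pseudogenes of the stress gene PSAT1, were also among the 20 largest rises, and their reads may belong to PSAT1.

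**Figure D2:**
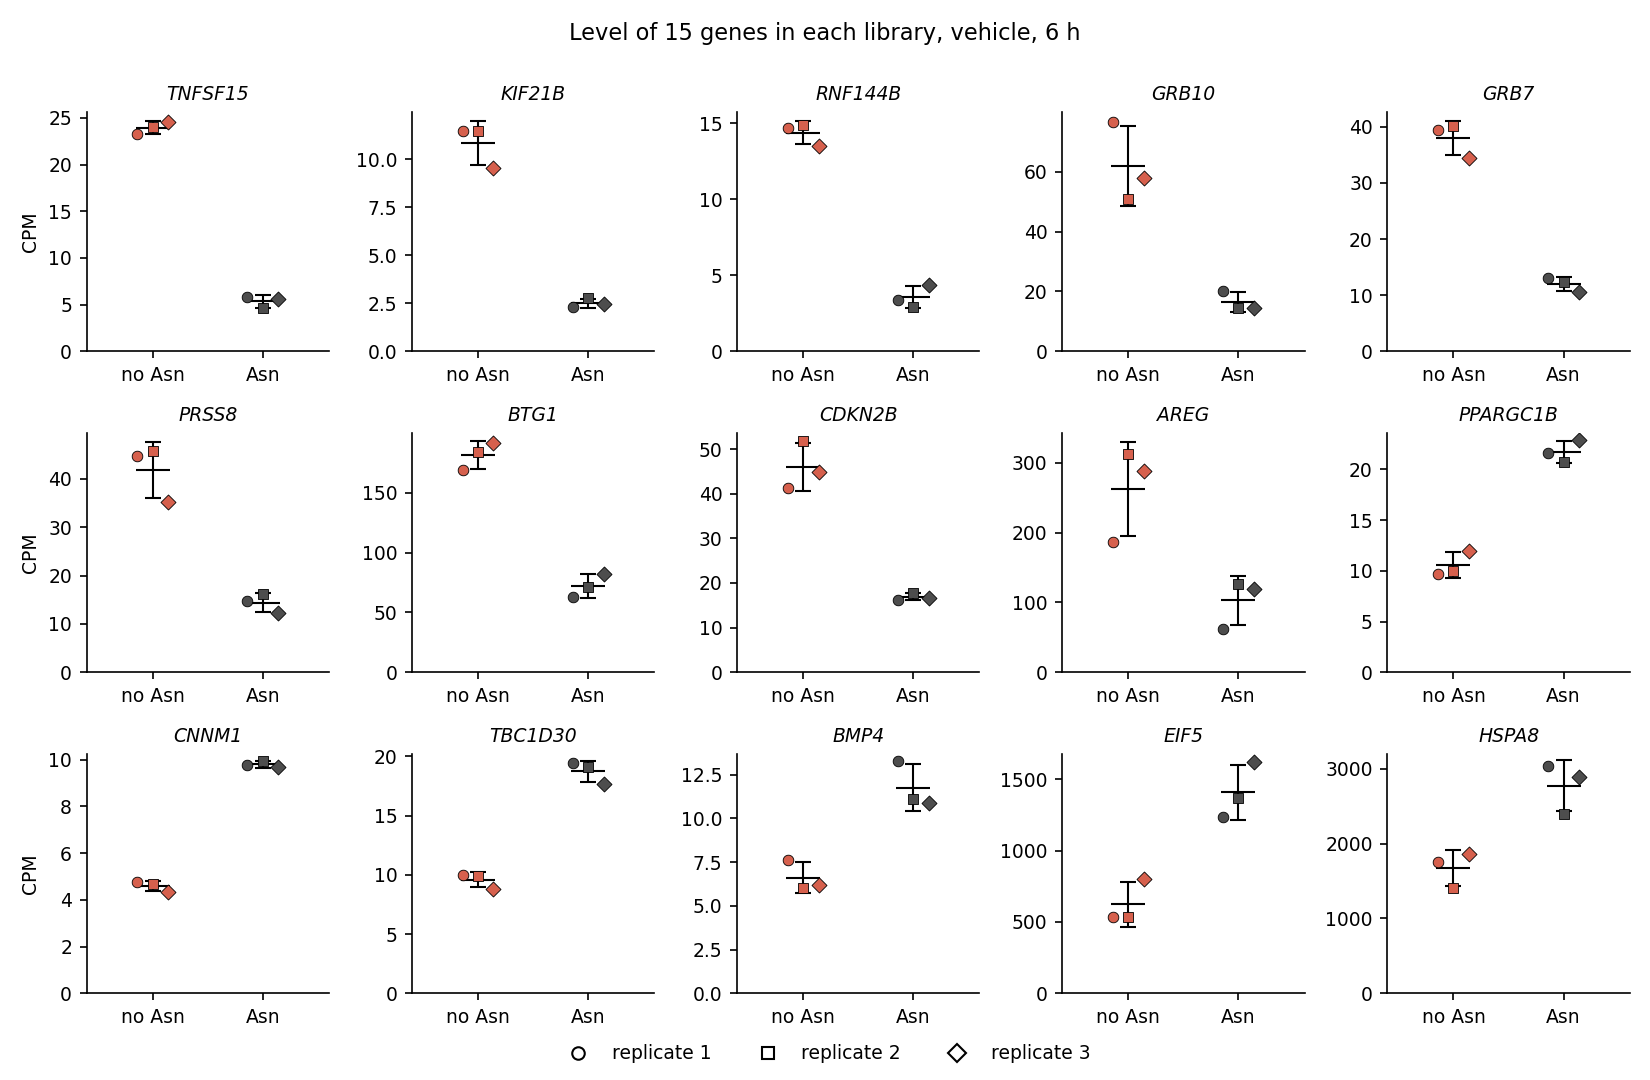
CPM of 15 genes in each of the 6 libraries, no asparagine left and asparagine right in each panel; points are replicates and bars are mean ± SD of 3. The 9 genes shown first are higher without asparagine and the last 6 lower. None overlaps between the media, which the choice of most of them required, and AREG shows the low replicate 1 in both.

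The promoters of some risen genes held the composite element of C/EBP and ATF proteins. Windows from 250 bases before to 50 bases after the first listed start of each gene, from RefSeq on GRCh38.p14, were found for 10862 of the 17409 genes tested. The 9-letter composite, TGATGNAAN, was sought on both strands. It was in 182 windows (1.68%) of all genes tested, 38 of 443 (8.58%) of risen genes and 0 of 168 of fallen genes. Among risen known stress genes it was in 15 of 49 (30.6%), and among risen genes outside that list in 23 of 394 (5.84%). Of the 23, 6 were among the 54 genes with a window whose response was lower with ISRIB (11.1%), and 3 were among the 103 that also rose with ISRIB (2.91%), with SYNE1 counted in both groups. Over all listed starts of a gene the shares were 2.74% of genes tested, 12.4% of risen and 0.595% of fallen genes. Median GC of the windows was 63.3% for risen, 70.7% for fallen and 65.3% for all genes, and its part in these shares was not tested.

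The sites below are shown because they are those of the 6 genes outside the stress list whose rise was lower with ISRIB (SYNE1, GPX8, FUT1, C9orf91, DLGAP1-AS2 and RP11-390P2.4) and of ARID5B and NCOA7, whose log2 changes were 0.91 and 0.93 with ISRIB and 0.88 and 1.00 with vehicle, beside ASNS. All but SYNE1, GPX8 and RP11-390P2.4 are named for their motif and not for the size of their change. Each is the gene's strand, 5′ to 3′, with the 9 bases of the composite in capitals and 10 bases on either side.
ASNS: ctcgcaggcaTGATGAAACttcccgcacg
SYNE1: tttcggaagtTGATGAAAAaggagccagc
GPX8: aaaaattataATTACATCAcaaatacttt
FUT1: tcctcctcccTGATGCAATcctggtgttt
C9orf91: ggcgctcggcTGATGAAACgcggcctcca
DLGAP1-AS2: aggctcaagcTGATGAAAAtccaagaaat
RP11-390P2.4: ctaggcgtgtGTTACATCAacatctcccc
ARID5B: tgccaggaccTGATGCAATccattcaagc
NCOA7: ggccaggaaaTGATGCAATtaccaaagga
The ASNS site (chr7:97872458-97872486, minus strand) begins its motif 68 bases before the gene's start and reads TGATGAAAC, as does the site of C9orf91. Those of FUT1, ARID5B and NCOA7 read TGATGCAAT. In GPX8 and RP11-390P2.4 the capitals are the reverse complement of the composite. C9orf91 (chr9:114611280-114611308, plus strand) has its motif 1 base before its start, and rose by 0.53 on the log2 scale. FUT1, a fucosyltransferase gene, rose by 1.00, and its site (chr19:48755459-48755487, minus strand) lies in the window of the divergent stress gene FGF21 as well. A match is a description of letters in a window and not a sign that a factor binds there.

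The full windows of SYNE1 and GPX8 are given since these held the composite among the 14 of the 20 largest rises outside the stress list whose windows were searched. SYNE1 is at chr6:152637313-152637612 on the minus strand and GPX8 at chr5:55159921-55160220 on the plus strand, both with the motif in capitals.
SYNE1: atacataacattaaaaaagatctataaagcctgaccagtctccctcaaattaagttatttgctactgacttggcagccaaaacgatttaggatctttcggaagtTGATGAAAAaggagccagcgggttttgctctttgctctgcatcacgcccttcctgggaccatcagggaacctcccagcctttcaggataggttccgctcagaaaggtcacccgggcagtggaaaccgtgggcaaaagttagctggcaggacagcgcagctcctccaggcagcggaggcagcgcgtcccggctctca
GPX8: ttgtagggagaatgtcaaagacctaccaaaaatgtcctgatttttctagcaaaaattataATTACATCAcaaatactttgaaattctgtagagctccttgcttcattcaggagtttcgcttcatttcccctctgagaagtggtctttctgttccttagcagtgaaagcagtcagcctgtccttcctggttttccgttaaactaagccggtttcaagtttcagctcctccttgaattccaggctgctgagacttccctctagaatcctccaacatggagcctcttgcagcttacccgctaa
Each holds the composite once, starting 146 bases before the SYNE1 start and 190 bases before the GPX8 start.

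Other motifs differed less between risen genes and all genes. The cAMP response element TGACGTCA was in 3.61% of risen, 2.38% of fallen and 3.19% of all windows. The AP-1 site TGAGTCA was in 5.87% of risen, 2.38% of fallen and 3.27% of all windows. None of the motifs with letters given here is contained in another. The E-box CACGTG was in 31 of 168 windows of fallen genes (18.5%), 10.8% of risen and 9.86% of all windows, and fallen windows were also the richest in GC. The ER stress element was in 2 of 443 risen windows (0.451%) and 0 fallen windows, against 14 of 10862 (0.129%) of all. Both risen windows were of known stress genes, and 0 of 394 outside that list held it.

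**Figure D3:**
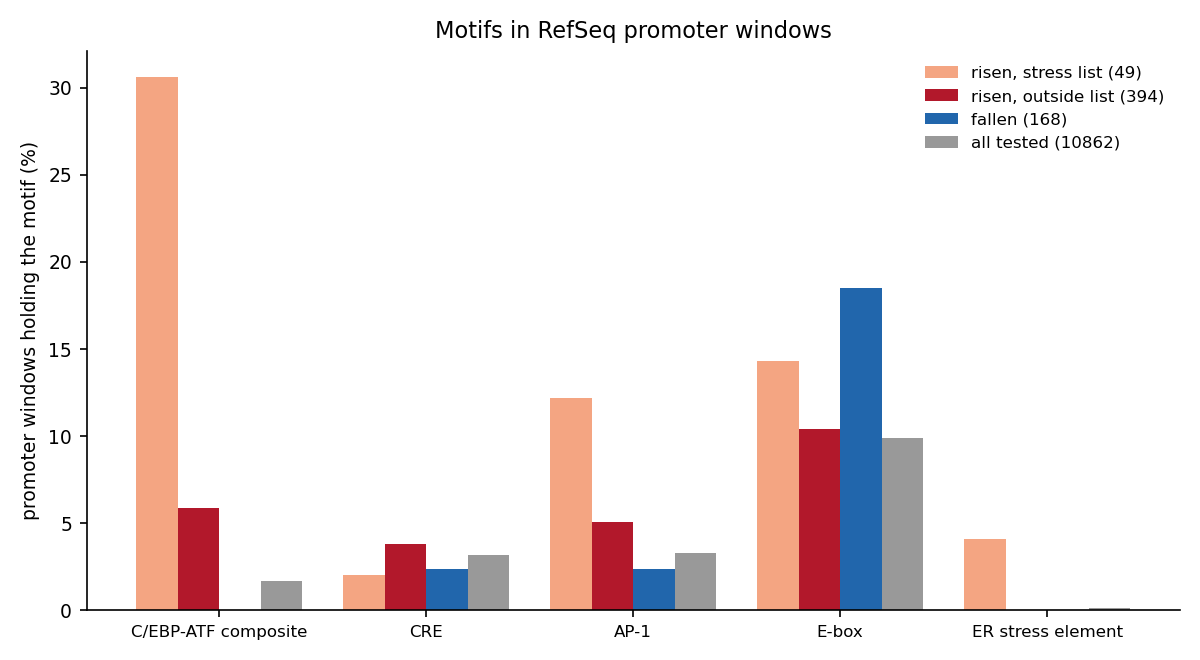
Share of RefSeq promoter windows, in %, that hold each of 5 motifs, for risen known stress genes (49 windows), other risen genes (394), fallen genes (168) and all genes tested (10862). The composite bar of the stress genes reaches 30.6%, that of other risen genes 5.84%, that of all genes 1.68%, and fallen genes have none; the E-box is highest in fallen genes.

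Among called genes of at least 5 CPM outside the stress list, without overlap between the media, EIF5 fell furthest. EIF5, the factor that makes eIF2 hydrolyse GTP at the start codon (chromosome 14, 103333544 to 103345025), had 533, 532 and 802 CPM without asparagine, against 1236, 1367 and 1618 CPM with it (-1.18 ± 0.16, adjusted p = 5.8e-05 by edgeR). Its processed copy EIF5P1 fell by 1.16 on the log2 scale, and reads of both copies may be mixed. PPARGC1B, the coactivator PGC-1β of mitochondrial gene expression, had 9.71, 10.0 and 12.0 CPM without asparagine, against 21.6, 20.7 and 22.9 CPM with it (-1.04 ± 0.11, adjusted p = 1.4e-06). All 3 libraries without asparagine lay below all 3 with it, as the ranking required. CNNM1, of a family of metal transport mediators, had 4.75, 4.68 and 4.34 CPM without asparagine, against 9.79, 9.96 and 9.67 CPM with it (-1.09 ± 0.12, adjusted p = 2.1e-06). TBC1D30, a GTPase-activating protein for RAB proteins, had 10.0, 9.91 and 8.83 CPM without asparagine, against 19.4, 19.1 and 17.7 CPM with it (-0.96 ± 0.11, adjusted p = 2.6e-06). In both genes the 3 libraries of a medium were close together and the media far apart. EIF5P1 lost its call without replicate 2 of the cells deprived of asparagine (0.055) or replicate 3 of the cells given asparagine (0.05).

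Other large falls were in membrane and signalling genes. SLC45A4, a solute carrier gene, fell by 0.93 on the log2 scale (adjusted p = 0.00017 by edgeR), and ZNF488, a transcriptional repressor, by 1.03 (adjusted p = 0.00025). MVB12B, a subunit of the ESCRT-I sorting complex, fell by 0.90, the sphingosine-1-phosphate receptor gene S1PR2 by 0.87 and PXMP4, of the peroxisomal membrane, by 0.85. BMP4, a bone morphogenetic protein, had 7.63, 6.01 and 6.18 CPM without asparagine, against 13.3, 11.1 and 10.9 CPM with it (-0.84 ± 0.17, adjusted p = 0.0046). PLD6, a mitochondrial phospholipase, and RAPGEF5, an exchange factor for RAP GTPases, fell by 0.82 and 0.79. These 8 genes kept their call with each of the 6 libraries left out. The other 8 named falls did not in every such fit. The number of the 6 fits in which the call was lost, with the highest adjusted p, was as follows for DUSP2 (3, up to 0.097), EPN3 (4, up to 0.11), NAT8L (5, up to 0.18), FHOD1 (2, up to 0.055), FAM53B (6, up to 0.2) and CAMKK1 (4, up to 0.068). Of these, DUSP2 encodes a MAP kinase phosphatase, EPN3 an endocytic epsin, NAT8L the enzyme that makes N-acetylaspartate, FHOD1 a formin and CAMKK1 a calcium-dependent kinase, and their log2 changes lay between -1.09 and -0.76. The remaining ones were EIF5P1, given above, and ACTBP7, a pseudogene of beta-actin, whose call was lost in 5 of the 6 fits (adjusted p up to 0.17).

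Among abundant genes, per kilobase of exon, changes were modest. TFPI2, a secreted protease inhibitor, had 457, 538 and 578 CPM without asparagine, against 213, 269.6 and 267 CPM with it (1.07 ± 0.20, adjusted p = 0.0015 by edgeR). PRNP, the prion protein gene, had 575, 548 and 624 CPM without asparagine, against 393, 358 and 399 CPM with it (0.60 ± 0.09, adjusted p = 0.00024). EIF1, which guards start codon choice and acts against EIF5 in that step, had 636, 661 and 712 CPM without asparagine, against 489, 482 and 527 CPM with it and rose by 0.42 on the log2 scale (adjusted p = 0.0045). These 3 genes had no overlap between media. GPRC5A, an orphan receptor gene, rose by 0.44, and lost its call in 3 of the 6 fits with a library left out, with adjusted p up to 0.12. On the falling side HSPA8, the constitutive HSP70 chaperone, had 1753, 1407 and 1861 CPM without asparagine, against 3041, 2396 and 2882 CPM with it (-0.73 ± 0.13, adjusted p = 0.0014). PPIF, the mitochondrial cyclophilin, had 287, 302 and 302 CPM without asparagine, against 404, 386 and 413 CPM with it (-0.43 ± 0.10, adjusted p = 0.009), and its libraries also did not overlap. ARF1, a GTPase of Golgi coats, ALYREF, an mRNA export adaptor, and FKBP4, a cochaperone of HSP90, fell by 0.42, 0.57 and 0.32, and lost their call in 1, 5 and 3 of those fits (adjusted p up to 0.059, 0.14 and 0.09). HSPA8 has near-identical copies elsewhere in the genome, so its count is uncertain.

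Lists of genes by function gave few calls each, and are set beside 3.31% risen and 1.26% fallen of all genes tested. They too were chosen with earlier results of these data known. In the list of the circadian clock and its PAR bZIP relatives 3 of 21 rose and 0 fell (median log2 change 0.211). BHLHE40, a clock repressor, had 75.5, 102 and 85.1 CPM without asparagine, against 39.8, 40.8 and 37.3 CPM with it (1.16 ± 0.13, adjusted p = 6.2e-06 by edgeR). NFIL3, a repressor of the PAR bZIP sites, had 30.3, 34.3 and 30.8 CPM without asparagine, against 15.8, 15.5 and 15.1 CPM with it (1.04 ± 0.10, adjusted p = 7.2e-07). Both genes separated the media without overlap. ARNTL, the clock activator BMAL1, rose by 0.58 on the log2 scale. Of 33 nuclear receptor and PGC-1 genes 2 rose and 1 fell, with the glucocorticoid receptor NR3C1 up by 0.81, the thyroid hormone receptor THRB up by 0.50 and PPARGC1B as given above. Of 32 cyclins and CDK inhibitors 3 rose and 1 fell. CDKN2B, the inhibitor p15, had 41.3, 51.8 and 44.8 CPM without asparagine, against 16.3, 17.8 and 16.7 CPM with it (1.44 ± 0.14, adjusted p = 3.7e-07). CDKN1B, the inhibitor p27, rose by 0.43 and CCNE1, cyclin E1, fell by 0.47. Calls lost when a library was left out, with the number of the 6 fits and the highest adjusted p, were ARNTL (2, up to 0.075), CDKN1B (4, up to 0.08) and CCNE1 (1, up to 0.063).

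Cell signalling lists were mixed in direction. Of 20 TNF superfamily genes 2 rose and 2 fell (median -0.133). TNFRSF9, the receptor 4-1BB, had 3.74, 3.07 and 4.9 CPM without asparagine, against 0.807, 1.04 and 1.25 CPM with it (1.91 ± 0.28, adjusted p = 0.0001 by edgeR). TNFRSF10D, a decoy receptor of TRAIL, had 10.5, 10.9 and 11.6 CPM without asparagine, against 16, 17.5 and 19.2 CPM with it (-0.68 ± 0.10, adjusted p = 0.00011). The groups lay apart in both genes, in opposite directions. The lymphotoxin receptor gene LTBR fell by 0.45. In the NOTCH list, 3 of 28 rose and 1 fell, with the ligand JAG1 up by 0.62 on the log2 scale, the target HES1 up by 0.54, the coactivator MAML2 up by 0.47 and the regulator DTX4 down (-0.57). Of 32 WNT genes 2 rose and 2 fell, at a median of -0.198 against 0.0051 for all genes. The receptor FZD4 was up (0.57), the receptor FZD5 down (-0.32), the transcription factor TCF7L2 up (0.58) and the ligand WNT5B down (-0.59). Median transcript GC was 53.0% in the TNF list and 52.9% in the WNT list, against 47.7% for all genes. Its part in the medians of these lists was not tested. The BMP and TGF-beta list had 2 of 34 risen (ACVR2B and TGIF1) and 2 fallen (BMP4 and INHBB). Of 29 genes of cyclic nucleotide signalling 3 rose and 1 fell. PDE4D, a cAMP phosphodiesterase, had 35.6, 29.5 and 32.3 CPM without asparagine, against 15.2, 13.1 and 14.7 CPM with it (1.18 ± 0.18, adjusted p = 0.00018). CREB5, a relative of CREB, rose by 1.29 and the cGMP phosphodiesterase PDE5A by 0.68, while PDE4A fell by 0.48. Calls lost when a library was left out (number of the 6 fits, highest adjusted p) were LTBR (6, up to 0.18), HES1 (1, up to 0.05), MAML2 (3, up to 0.11), TCF7L2 (3, up to 0.15), FZD5 (5, up to 0.1), FZD4 (4, up to 0.22), ACVR2B (4, up to 0.11), TGIF1 (4, up to 0.15), INHBB (4, up to 0.18), PDE4A (4, up to 0.23) and PDE5A (6, up to 0.25).

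**Figure D4:**
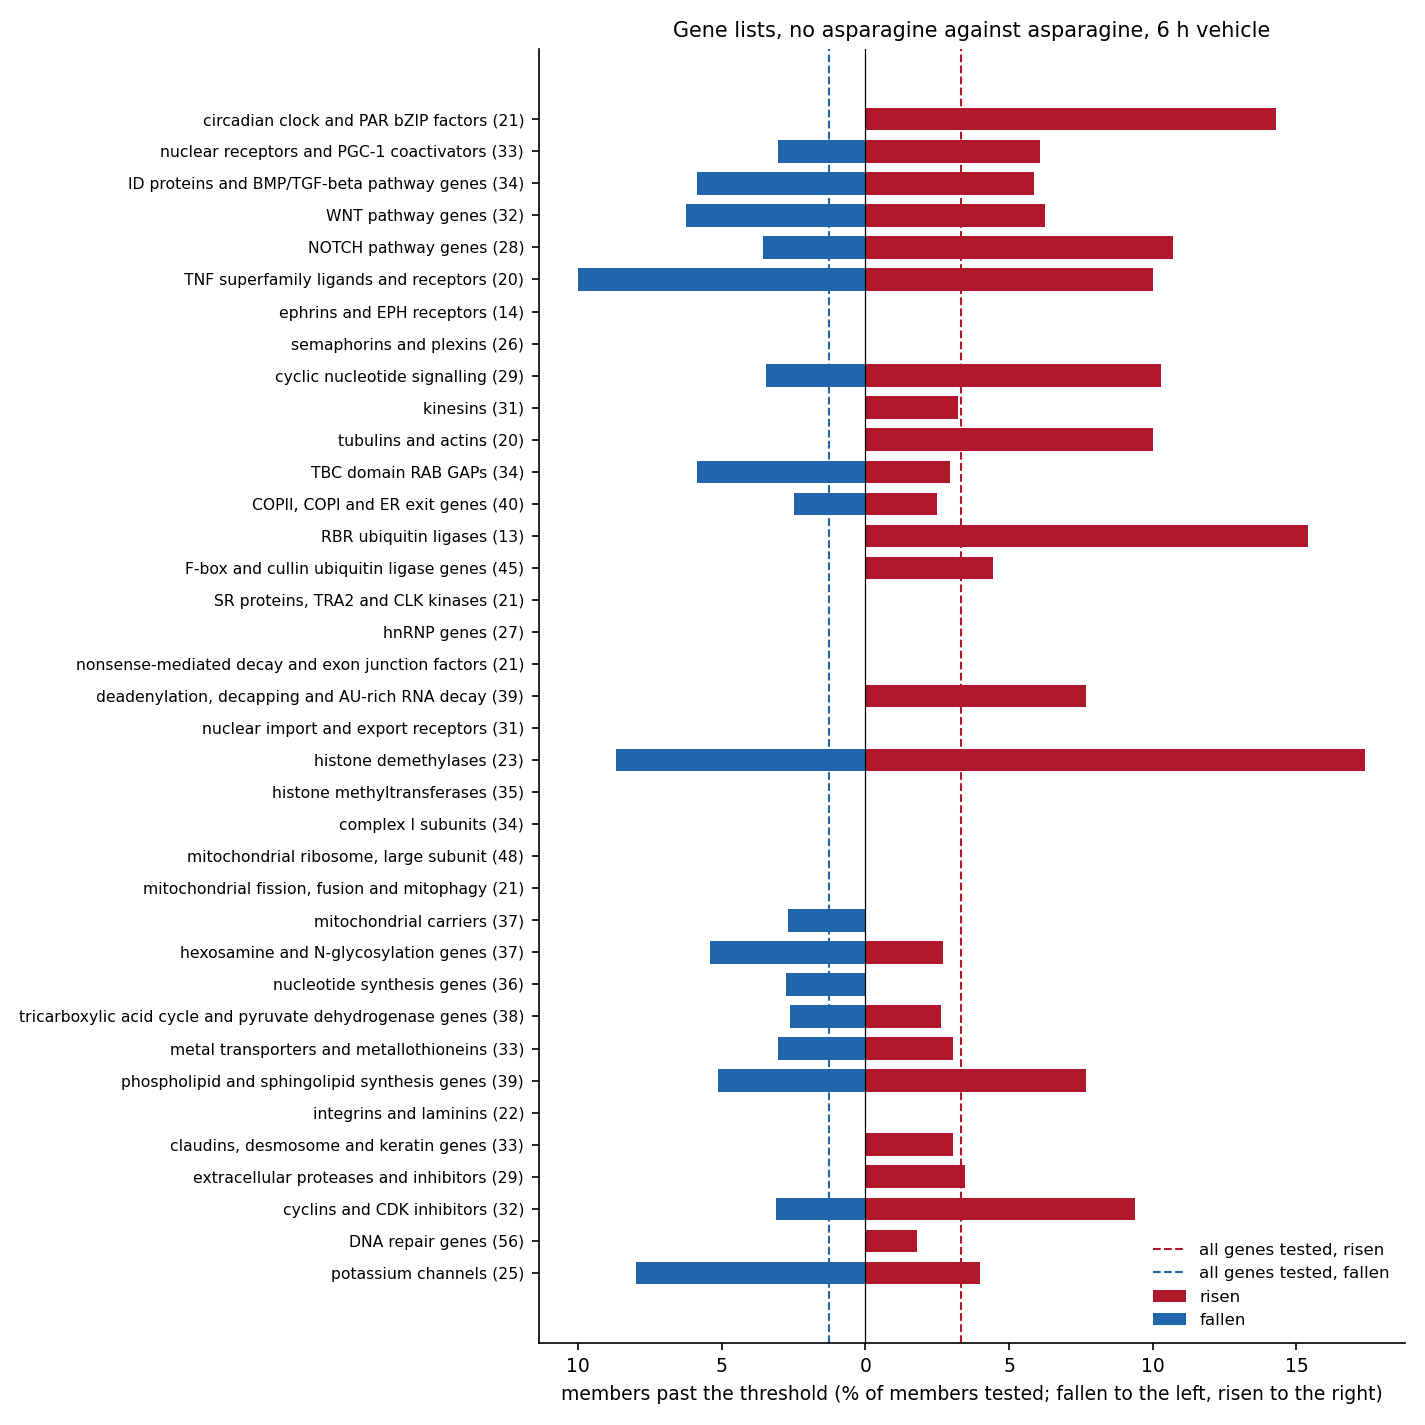
Share of the tested members of gene lists, in %, that rose (right, red) or fell (left, blue) without asparagine; the number tested is in brackets and dashed lines give the shares over all genes. Histone demethylases, RBR ligases and the clock list show the highest risen shares, each from 2 to 4 genes, and 11 lists have no bar.

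Chromatin and RNA lists held several single genes. Of 23 histone demethylases 4 rose and 2 fell (17.4% and 8.70%). JMJD1C, a protein with a JmjC domain, had 102, 108 and 110.3 CPM without asparagine, against 57.0, 53.5 and 62.0 CPM with it (0.90 ± 0.16, adjusted p = 0.0013 by edgeR). KDM4A, a demethylase of histone H3 lysine marks, had 56.7, 53.7 and 53.8 CPM without asparagine, against 37.7, 36.3 and 36.9 CPM with it (0.57 ± 0.08, adjusted p = 0.00012), and KDM6A rose by 0.51 on the log2 scale. JMJD6, an arginine demethylase and lysyl hydroxylase, fell by 0.57 (adjusted p = 0.0016). The 4 genes kept their call with each library left out. Of 39 genes of deadenylation, decapping and AU-rich decay 3 rose and 0 fell, BTG1 and PNRC1 as above and CNOT8, a CCR4-NOT deadenylase, by 0.39. TOB1, the relative of BTG1 in that list with the largest p, had 75.3, 71.8 and 72.1 CPM without asparagine, against 84.5, 68.5 and 66.5 CPM with it. Of 13 RBR ligases 2 rose (RNF144B and RNF19A) and of 45 F-box and cullin genes 2 rose (FBXO32 and the iron-sensing FBXL5). Calls lost when a library was left out (number of the 6 fits, highest adjusted p) were CNOT8 (5, up to 0.14), RNF19A (5, up to 0.14) and FBXL5 (4, up to 0.18).

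Cytoskeletal and trafficking lists held few called genes each. TUBE1, the epsilon-tubulin of centrioles, had 22.6, 20.2 and 23.3 CPM without asparagine, against 10.8, 8.40 and 10.1 CPM with it (1.17 ± 0.15, adjusted p = 2.1e-05 by edgeR). It did not overlap between media. TUBB2B rose by 1.49 on the log2 scale and the abundant TUBB4B had 713, 693 and 651 CPM without asparagine, against 674, 738 and 639 CPM with it. Among 31 kinesins 1, KIF21B, rose and 0 fell. Of 40 COPII, COPI and ER exit genes BET1, a SNARE between ER and Golgi, rose by 0.65 and ARF1 fell. ADAMTS6, a secreted metalloprotease, had 6.19, 10.3 and 10.5 CPM without asparagine, against 2.67, 3.08 and 4.79 CPM with it (1.36 ± 0.24, adjusted p = 0.0011) and was the single call of 29 extracellular proteases and inhibitors. Calls lost when a library was left out (number of the 6 fits, highest adjusted p) were TUBB2B (3, up to 0.077) and ARF1 (1, up to 0.059).

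Metabolic lists were similar. OGT, the O-GlcNAc transferase, had 254, 225 and 258 CPM without asparagine, against 146, 156 and 171 CPM with it (0.64 ± 0.09, adjusted p = 0.00011 by edgeR), and of 37 hexosamine and N-glycosylation genes it was the 1 that rose, while DOLK and GNPDA1 fell. PDP2 and PDP1, phosphatases that activate pyruvate dehydrogenase, went opposite ways (-0.64 and 0.55 on the log2 scale). SGMS1, a sphingomyelin synthase, had 128, 155 and 161 CPM without asparagine, against 69.5, 80.1 and 102 CPM with it (0.82 ± 0.17, adjusted p = 0.0042). SGPL1, the sphingosine-1-phosphate lyase, rose by 0.31 (adjusted p = 0.0059), and PCYT2 and PTDSS1, of phosphatidylethanolamine and phosphatidylserine synthesis, fell by 0.60 and 0.34. DHODH, of pyrimidine synthesis, was the 1 of 36 nucleotide synthesis genes that fell (-0.48). Of 33 metal transport genes 1 rose and 1 fell, of 34 TBC domain genes 1 rose and 2 fell, of 25 potassium channels 1 rose and 2 fell, and of 56 DNA repair genes 1 (XPC) rose. Calls lost when a library was left out (number of the 6 fits, highest adjusted p) were DOLK (5, up to 0.14), GNPDA1 (4, up to 0.15), PDP1 (4, up to 0.097), PCYT2 (4, up to 0.11), PTDSS1 (2, up to 0.074), DHODH (6, up to 0.24), SLC39A14 (3, up to 0.16), RAB3GAP1 (6, up to 0.19), TBC1D24 (4, up to 0.21), KCNK1 (2, up to 0.077), KCNK5 (4, up to 0.11), KCNC4 (6, up to 0.22) and XPC (6, up to 0.18).

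For 11 lists with 300 members in all, edgeR called 0 genes. They were ephrins and EPH receptors, semaphorins and plexins, SR proteins, hnRNP genes, nonsense-mediated decay, nuclear import and export receptors, histone methyltransferases, complex I, the large mitochondrial ribosome subunit, mitochondrial fission and fusion, and integrins and laminins. At an unadjusted p below 0.05 there were 18 members higher and 24 lower, against 1620 higher and 1085 lower of all 17409 genes tested. In these lists DESeq2 called 2 higher and 3 lower, limma 1 and 1, edgeR with the replicate block 7 and 0, and edgeR with the GC correction 8 and 16. Complex I, with 34 members, and nonsense-mediated decay, with 21, had 0 members at an unadjusted p below 0.05 and 0 by DESeq2, limma, the block or the GC correction. Integrins and laminins had a median log2 change of 0.25, with 5 of 22 members higher at an unadjusted p below 0.05, 3 called higher with the GC correction and 2 with the block.

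Most changed genes code for proteins, as do most of the genes tested. Of 12521 protein-coding genes 505 rose (4.03%) and 212 fell (1.69%), beside 3.31% and 1.26% of all genes tested. Of 1541 long non-coding RNA genes 42 rose (2.73%) and 2 fell (0.13%), and of 3106 pseudogenes 27 rose (0.869%) and 4 fell (0.129%). The median levels of the 3 types were 25.9, 0.868 and 4.47 CPM, and the part of level in these shares was not tested. RP11-426C22.6, on chromosome 16, had 2.45, 1.38 and 1.99 CPM without asparagine, against 0.252, 0.209 and 0.349 CPM with it (2.80 ± 0.36, adjusted p = 1.6e-05 by edgeR). RP11-390P2.4, antisense to the risen gene NHSL1, had 2.61, 2.61 and 1.84 CPM without asparagine, against 0.706, 0.313 and 0.648 CPM with it (2.07 ± 0.38, adjusted p = 0.0014). RP11-293M10.6, antisense to the risen stress gene JDP2, had 2.45, 2.98 and 1.79 CPM without asparagine, against 0.454, 0.834 and 0.598 CPM with it (1.93 ± 0.35, adjusted p = 0.0013). All were low and did not overlap between media, the latter being required for naming them. Whether counting used strand is not given in the sources used here, so reads of an antisense gene and its partner cannot be told apart. ECM2, an extracellular matrix protein gene, was among the steepest rises of protein-coding genes, with 4.54, 3.07 and 3.37 CPM without asparagine, against 0.404, 0.313 and 0.598 CPM with it (3.04 ± 0.37, adjusted p = 9.5e-06). NWD2 and ROBO4, with 1.07, 2.57 and 2.30 CPM and 0.587, 0.596 and 0.613 CPM without asparagine, had 0, 0.313 and 0.0499 CPM and 0.0505, 0.0521 and 0.0499 CPM with it, too few reads for a fold.

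Called genes were more abundant and longer than genes tested in all, and the parts of level and length were not separated. Below 1 CPM 27 of 2712 genes rose and 2 fell, and above 100 CPM 120 of 2353 rose and 37 fell. The median level was 31.9 CPM for risen, 24.5 CPM for fallen and 15 CPM for all genes tested, and the median exonic length 5580, 5329 and 3957 bases. In 573 of 576 risen genes and 218 of 219 fallen genes the media did not overlap, against 4872 (28.0%) of all genes tested, beside 4.57% called. Beside 3.31% of all genes tested, chromosome 18 had the highest share of risen genes, 20 of 275 (7.27%). Chromosome 11 had the lowest among the autosomes and X, 14 of 914 (1.53%). None of 19 genes of the mitochondrial chromosome passed the test, too few genes to set against 4.57% called of all.

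Some changed genes were neighbours. Of 574 placed risen genes 50 (8.71%) lay within 10 kb of another risen gene, forming 27 pairs of which 13 overlap, and of 219 fallen genes 10 (4.57%) did, in 5 pairs. Examples of overlapping risen pairs were OSMR, an oncostatin M receptor subunit, with RICTOR, of the mTORC2 complex (log2 changes 0.60 and 0.89), and PNPLA8, a phospholipase, with the stress gene DNAJB9 (0.76 and 0.96). Fallen pairs included ZIC5 and ZIC2, zinc finger transcription factors (-1.32 and -0.59), and FHOD1 and SLC9A5 (-0.81 and -0.95). These pairs were picked after their values were seen. No share was computed for other sets of genes, so the counts do not tell whether changed genes lie closer together. The overlapping pairs named lie on opposite strands. Whether counting used strand is not given, so their reads cannot be told apart.

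Withdrawal in other libraries was set beside these genes, with ISRIB at 6 h and with vehicle at 24 h. Those libraries were not in the contrast that called the genes, but shared its fit over all 24 libraries. With ISRIB 400 genes (2.3%) passed, 284 higher and 116 lower. The genes risen in both were 130, or 45.8% of those with ISRIB and 22.6% of those with vehicle, and those fallen in both were 48, or 41.4% and 21.9%. Genes called in opposite directions were 3 and 1. The 517 risen genes outside the stress list had a median log2 change of 0.265 with ISRIB, positive in 424, and 125 of them were called risen there. The 59 risen stress genes had a median of -0.035 with ISRIB, and 25 were positive. The 217 fallen genes outside the list had a median of -0.274 with ISRIB, negative in 205. The ISRIB libraries were uneven in their GC slope (0.0543, 0.0829 and -0.361 without asparagine, -0.1904, 0.0932 and 0.0847 with it). With the GC trend removed, the median log2 change with ISRIB was 0.233 over the 576 risen genes, against 0.24 without the correction, and -0.228 over the 219 fallen genes, against -0.274. Fitted by edgeR to its own 6 libraries, the ISRIB comparison called 0 of 16059 genes, with 723 higher and 344 lower at an unadjusted p below 0.05, while DESeq2 on all 24 libraries called 487 higher and 208 lower. With 1 ISRIB library left out of the shared fit, 129 to 337 genes rose and 59 to 107 fell, fewest without replicate 2 given asparagine.

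A direct test of the difference in response split the genes. The response was lower with ISRIB than with vehicle in 115 genes and higher in 10, 0.718% of those tested. These differences use the same vehicle libraries that chose the risen genes, which tilts them toward lower values. Among risen genes 39 of 59 on the stress list and 72 of 517 outside it were lower. KIF21B averaged 1.63 ± 0.13 CPM without asparagine and 2.16 ± 0.539 CPM with it in ISRIB (SD, n = 3 each), and the difference of its response from that with vehicle was -2.52 ± 0.29, adjusted p = 4.2e-05, by edgeR. TNFSF15 averaged 5.53 ± 1.42 CPM without asparagine and 5.42 ± 0.955 CPM with it in ISRIB, a difference of -2.13 ± 0.27, adjusted p = 0.00012. GRB10 (-1.91), PRSS8 (-1.79), GPX8 (-1.75), SH3BP2 (-1.59), RNF144B (-1.52), PDE4D (-1.35) and TUBE1 (-1.19) were lower as well.

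Other genes rose or fell with ISRIB too, in the fit over all 24 libraries. Fitted to its own 6 libraries, the ISRIB comparison called 0 of 16059 genes. FBXO32 averaged 26.1 ± 4.82 CPM without asparagine and 11.1 ± 0.933 CPM with it in ISRIB (SD, n = 3 each), a log2 change of 1.23 ± 0.15, adjusted p = 8.4e-05 by edgeR with Benjamini-Hochberg adjustment. BHLHE40 (0.99), NFIL3 (0.77), BTG1 (0.89), CDKN2B (1.06), DUSP10 (1.08) and THRB (0.45) rose there. On the falling side EIF5 averaged 502 ± 127 CPM without asparagine and 1495 ± 70.2 CPM with it, a change of -1.57 ± 0.17, adjusted p = 6.4e-06. HSPA8 (-0.92), PPARGC1B (-0.76), TBC1D30 (-0.84), SLC45A4 (-0.83) and TNFRSF10D (-1.11) fell there. For these 13 genes the difference from vehicle had an adjusted p of 0.35 to 1.0, which does not show that the responses were equal. DUSP10 was named for the small size of that difference, so its value of 0.00 ± 0.21 (SE) follows from the choice. For THRB the difference was -0.06 ± 0.12. AREG, EREG and HBEGF had log2 changes of 0.83, 1.13 and 0.87 with ISRIB, none past the threshold (adjusted p = 0.2, 0.11 and 0.2).

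**Figure D5:**
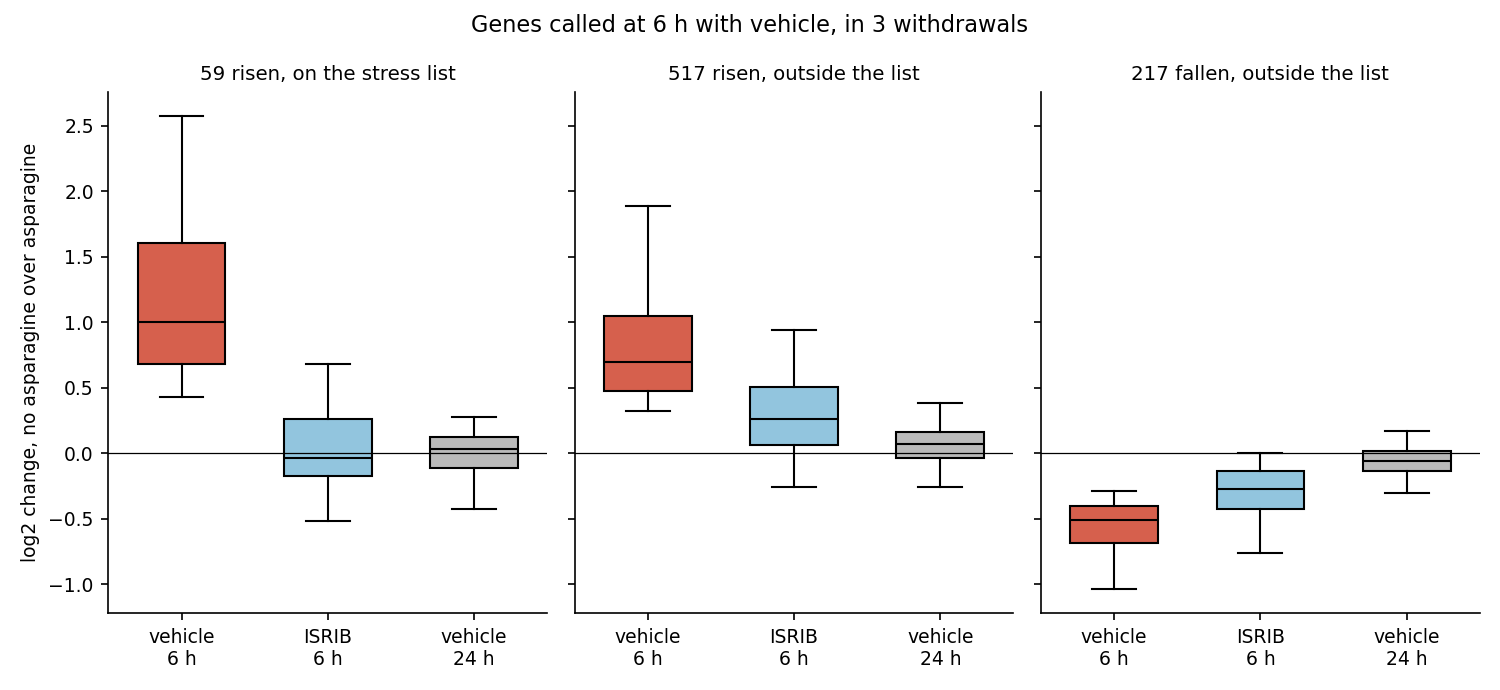
Log2 change, no asparagine over asparagine, of the genes called with vehicle at 6 h, in that withdrawal, in withdrawal with ISRIB at 6 h and in withdrawal with vehicle at 24 h. Boxes span the quartiles with the median as a line and whiskers reach the 5th and 95th percentiles; with ISRIB the stress genes centre on -0.035, other risen genes on 0.265 and fallen genes on -0.274, and at 24 h all centre near 0. The first box of each panel holds the values that chose the genes.

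At 24 h with vehicle edgeR called 1 gene, ASNS (0.00574%), with 662 genes higher and 607 lower at an unadjusted p below 0.05, and DESeq2 called 3 higher and 2 lower. The response was lower at 24 h than at 6 h in 179 genes and higher in 34 (1.22%, the higher ones 15 to 31 with 1 library left out, fewest without replicate 1 deprived of asparagine for 24 h), again against the 6 h libraries that chose the genes. It was lower in 38 of 59 risen stress genes and 140 of 517 other risen genes, and higher in 31 of 217 fallen ones. The risen genes outside the list had a median log2 change of 0.071 at 24 h and the fallen ones -0.063. With the GC trend removed, the median over all 576 risen genes was 0.02 at 24 h, against 0.068 without the correction, and that over all 219 fallen genes -0.02, against -0.062. TNFSF15 averaged 5.09 ± 0.708 CPM without asparagine and 4.65 ± 0.85 CPM with it at 24 h (SD, n = 3 each), and the difference of its response from that at 6 h was -2.03 ± 0.27, adjusted p = 0.00023 in edgeR. EIF5 averaged 1131 ± 9.98 CPM without asparagine and 1139.9 ± 79.0 CPM with it, a difference in response of 1.17 ± 0.23, adjusted p = 0.0069. PPARGC1B (1.10), CNNM1 (1.26), HSPA8 (0.95) and TBC1D30 (0.83) likewise had higher responses at 24 h than their falls at 6 h.

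Calls leaned on GC content. Across genes the log2 change correlated with transcript GC at -0.301 (17326 genes, which are not independent replicates and share the 6 libraries). The genes were cut by GC into 5 groups of near-equal size. From lowest to highest GC 3.46%, 4.27%, 4.93%, 2.89% and 1.01% rose, beside 3.31% of all genes tested. In the same order 0.0866%, 0.491%, 1.93%, 2.42% and 1.39% fell, beside 1.26% of all. Neither share changed steadily with GC. The risen share was highest from 45.4% to 50.7% GC and the fallen share from 50.7% to 57.2%. Among the 3466 genes lowest in GC (25.7% to 41.0%) 120 rose and 3 fell. Among the 3465 highest (57.2% to 74.7%) 35 rose and 48 fell. The median GC was 45.8% for risen, 52.7% for fallen and 47.7% for all genes. After the trend was removed from each library, 231 rose and 154 fell among the lowest and 175 rose and 162 fell among the highest.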

How the data were processed

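Total RNA of PC9 cells was sequenced in 24 libraries, 3 for each of 8 groups. The values are the authors' deposited read counts per gene, not normalized. Bowtie2, featureCounts, DESeq2 and hg38 are named in the submitters' processing notes, and their versions and the strand setting are not given in the sources used here. Of 37411 genes, 17409 passed the expression filter of edgeR 4.0.16 and were fitted over all 24 libraries with a mean per group (TMM scaling, quasi-likelihood test, Benjamini-Hochberg adjustment, threshold 0.05). The authors also deposited variance-stabilized values on a log2 scale, used here with limma alone. CPM were computed from the deposited counts, and log2 changes with standard errors come from the fit. Deviations of libraries with the same replicate number correlated at 0.2838, 0.3111 and 0.3064, so the numbers pair the libraries, although the labels do not say what they mark, and a fit with the number as a block was run. Leaving out a library, other filters, scalings and tools (limma 3.58.1, DESeq2 1.42.0) and a GC correction were alternatives. Gene positions, types and GC come from GENCODE, promoters from RefSeq (GRCh38.p14). The members and lists were chosen with earlier results of these data known. Genes are named by rule: outside the known stress genes, the 20 largest rises and 20 largest falls at 5 CPM or more without overlap, the 6 most abundant changed genes per kilobase each way, the 5 lncRNA genes with the largest change each way, up to 4 called genes of each list with the 1 of largest p, and the 5 largest and 5 smallest differences between withdrawals. A few genes and a list that the rule names are not reported here.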

Additional observations from a re-analysis of the deposited data

Results flagged for a closer look

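Of 135 named genes called after 6 h without asparagine, the response differed from it by a direct test in 23 genes with ISRIB and in 39 genes at 24 h (edgeR with Benjamini-Hochberg adjustment over all genes tested, largest adjusted p 0.047). Of all genes tested, 0.718% differed with ISRIB and 1.22% at 24 h. Some of the 135 were named for the size of this difference and others for a large change at 6 h. The counts and signs therefore depend on that choice. Each value is a difference of 2 log2 changes, the response with ISRIB or at 24 h minus that with vehicle at 6 h, and each uses the vehicle libraries that called the genes.

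With ISRIB minus vehicle the difference was negative in all 23. Among genes outside the known stress list it was -3.16 for RP11-390P2.4, -2.91 for ECM2, -2.52 for KIF21B, -2.13 for TNFSF15, -1.91 for GRB10, -1.79 for PRSS8, -1.75 for GPX8, -1.59 for SH3BP2, -1.52 for RNF144B, -1.35 for PDE4D, -1.20 for ZBED3, -1.19 for TUBE1, -1.13 for LURAP1L, -0.92 for SYNE1, -0.77 for TGIF1, -0.65 for PRNP, -0.57 for OGT and -0.48 for SGPL1. Among known stress genes it was -2.56 for ASNS, -2.07 for TRIB3, -2.00 for HERPUD1, -1.82 for XBP1 and -1.0 for ATF4.

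At 24 h minus 6 h it was negative in genes that had risen. Outside the stress list it was -4.46 for RP11-495P10.7, -3.10 for ECM2, -2.46 for KIF21B, -2.03 for TNFSF15, -1.99 for GRB10, -1.97 for ULK1, -1.85 for GRB7, -1.80 for RNF144B, -1.80 for PRSS8, -1.73 for SH3BP2, -1.62 for LURAP1L, -1.62 for PNRC1, -1.51 for ZBED3, -1.47 for FBXO32, -1.37 for CDKN2B, -1.36 for PDE4D, -1.26 for SYNE1, -1.21 for BTG1, -1.18 for TUBE1, -1.17 for GPX8, -1.14 for BHLHE40, -1.11 for DUSP10, -1.0 for NFIL3, -0.78 for ARNTL, -0.70 for OGT, -0.59 for KDM4A and -0.59 for EIF1. Among known stress genes it was -2.04 for TRIB3, -1.87 for XBP1, -1.52 for HERPUD1, -1.45 for ASNS and -0.91 for ATF4. In genes that had fallen it was positive, with 0.50 for VANGL1, 0.61 for TNFRSF10D, 0.83 for TBC1D30, 0.95 for HSPA8, 1.10 for PPARGC1B, 1.17 for EIF5 and 1.26 for CNNM1. RP11-495P10.7 had few reads in libraries with asparagine, so the size of its difference depends on the fit.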

How the results depend on the processing

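With vehicle at 6 h, 576 genes rose and 219 fell. The GC correction gave 1024 and 774, the GC correction with the replicate block 1222 and 969, and the 2 groups fitted alone 866 and 563, while DESeq2 gave 365 fallen. Leaving out each library in turn gave 375 to 455 risen and 95 to 139 fallen. The replicate block, which uses the pairing of numbers, gave 698 and 294 and ended no call of a named gene. With ISRIB, 284 rose and 116 fell. These were 900 and 516 with the GC correction, 1123 and 668 with GC correction and block, 0 and 0 with the 2 groups fitted alone, 487 and 208 by DESeq2, and 129 to 337 and 59 to 107 with a library left out. At 24 h, 1 rose and 0 fell, and 82 and 104 did with no filter on low counts, 4 and 4 with GC correction and block, and 3 and 2 by DESeq2, with 1 and 0 in each fit that left out a library. The response with ISRIB was higher in 10 and lower in 115 genes. It was higher in 21 with no filter, and higher and lower in 70 and 223 with the GC correction, 113 and 273 with GC correction and block, and 4 and 68 in the groups alone, with 26 higher by DESeq2 and 7 to 15 and 84 to 134 with a library left out. The response at 24 h was higher in 34 and lower in 179. These were 280 and 443 with the GC correction and 421 and 592 with GC correction and block, and 58 higher in the groups alone, 100 higher by DESeq2, and 15 to 31 and 140 to 155 with a library left out. The causes were not tested. Of 141 named calls none reversed, 76 held with each of the 6 libraries left out, and 24 were lost with no filter. The GC correction ended the calls of TGIF1 and FBXL5, RLE scaling that of PDE5A, limma that of NAT8L, and DESeq2 that of FZD4, among the genes described. RLE scaling, a stricter filter and limma kept each count of risen and fallen genes with vehicle at 6 h within 1.5 times. Few replicates of 1 cell line and uneven GC slopes limit what these data can show, and genes with few reads have wide errors.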
